A study of Homo sapiens with 2 samples.

Results

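The STEAP metalloreductases and the iron-handling genes around them were compared between stretched and non-stretched Calu-3 cells, a human lung adenocarcinoma line used as a model of airway epithelium. The 10 members are the 5 STEAP genes (STEAP1, STEAP1B, STEAP2, STEAP3 and STEAP4), the transferrin receptor TFRC, the iron transporters SLC11A2 and SLC40A1, and the ferritin chains FTH1 and FTL. They were taken, by gene symbol, from 19775 genes named on a whole-genome Affymetrix array of 54675 probe sets. For 9 of the 10 members the platform annotation assigned 21 probe sets, while FTH1 had no probe set named for it alone and was not analysed here. The members were chosen by the same stretched against non-stretched signals that are given below, so every value is a description and none carries a test.

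The stretched culture was held for 18 h under cyclic strain on collagen-coated flexible plates, as a sine wave between 0.7% and 20% stretch with 2 s on and 2 s off. The non-stretched culture carries the same 18 h in its label. Both were grown to about 80% confluence and given medium with 10% serum. Each group is 1 array (n = 1), so there is no replicate, and the number of arrays limits the precision of every value. How many wells or cultures went into each RNA sample is not given in the sources used here. In a bulk RNA sample, fewer cells that express a gene and less RNA per cell cannot be told apart.

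STEAP proteins sit in the plasma membrane and in endosomes and pass electrons from NADPH through flavin and haem to ferric iron and cupric copper, reducing them to the forms that transporters carry. STEAP1 lacks the NADPH-binding domain of its relatives. In the transferrin cycle, TFRC brings transferrin-bound iron into endosomes, a STEAP protein reduces it, SLC11A2 (DMT1) moves ferrous iron into the cytosol, ferritin stores it, and SLC40A1 (ferroportin) exports it from the cell. Iron regulatory proteins bind hairpins in several of these transcripts, stabilising the TFRC transcript and blocking translation of ferritin when iron is scarce, so ferritin is controlled largely at a step that an RNA array does not measure.

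Signals are linear intensities, and the median of each array (28.4 stretched, 28.7 non-stretched) was used as a floor, with lower values set to it. A gene was represented by its brightest probe set, was called measured when above the floor in at least 1 array, and was counted as higher or lower at a difference of at least 2-fold. Differences are log2 stretched minus log2 non-stretched. The SD of a single probe set's log2 difference was 0.36, estimated from genes with several probe sets, or 0.22 among those above the 75th percentile, and says nothing of how much cultures vary. Hybridisation spike-ins differed by a median of -0.11 on the log2 scale, with a range of -0.23 to -0.03. The 75th percentiles of the arrays differed by 0.11. These references disagree in sign, so the scaling is uncertain by at least these amounts. All 10 airway epithelial markers were above the floor in both arrays, with a summed signal of 53479 stretched and 60139 non-stretched. Of these, ELF3, MUC1 and CFTR were at log2 differences of -1.86, -1.45 and -1.43. Of the named markers of other cell types, those above the floor in at least 1 array were 3 of 6 for leukocytes, 3 of 6 for fibroblasts, 1 of 4 for endothelium, 2 of 3 for erythroid cells and 2 of 5 for hepatocytes. The summed signals were 1603 stretched and 1352 non-stretched for the leukocyte list, of which LYZ, also made by airway gland cells, gave 1462 stretched and 1220.5 non-stretched. They were 194 stretched and 238 non-stretched for fibroblasts, 88.4 stretched and 91.0 non-stretched for endothelium, and 112 stretched and 125 non-stretched for erythroid cells. For hepatocytes they were 127 stretched and 283 non-stretched, with TTR 4.25-fold lower at 43.9 stretched and 187 non-stretched. Listed markers below the floor in both arrays included PTPRC, COL3A1, VWF, CDH5 and ALB. Above it in both were COL1A1, at 105 stretched and 126 non-stretched, and PECAM1, at 51.3 stretched and 57.7 non-stretched. So were HBB, at 83.5 stretched and 77.1 non-stretched, and CD14, at 55.1 stretched and 78.6 non-stretched. DCN, at 39.2 stretched and 45.1 non-stretched, and HAMP, at 39.9 stretched and 43.1 non-stretched, also exceeded it in both. CD3E exceeded it only when stretched, and COL1A2 and ALAS2 only when non-stretched. The part of these markers in the values below was not tested. The 3' to 5' signal ratios of the control probe sets were 1.01 stretched and 1.04 non-stretched for ACTB, and 0.862 stretched and 0.878 non-stretched for GAPDH.

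All 9 named members were measured, and each was above the floor in both arrays by its brightest probe set. Of these 9, 1 was higher in the stretched array by 2-fold or more and 4 were lower by 2-fold or more. Among the 13453 measured genes of the array, 7.78% were higher and 7.49% lower by the same rule; since the members were picked with these differences known, nothing is read from the contrast. The nearest members on either side of the 2-fold line were SLC11A2, 2.57-fold lower, and STEAP3, 1.57-fold higher. At the level of probe sets, 18 of 21 were above the floor in at least 1 array and 16 in both. Of these 18, 6 were lower and 1 was higher by 2-fold or more, against 6.48% lower and 8.66% higher among the measured single-gene probe sets of the array.

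**Figure D1:**
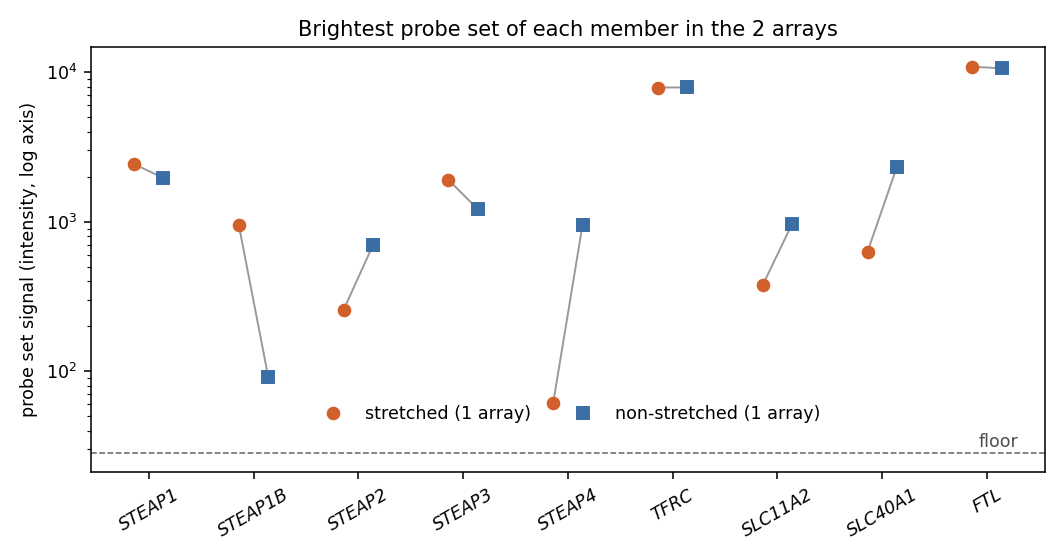
Signal intensity (log axis) of the brightest probe set of each member in the stretched array (circles) and the non-stretched array (squares), 1 array each, with the floor dashed. STEAP4 stands at 61.6 stretched and 958 non-stretched, STEAP1B at 947 stretched and 92.0 non-stretched, and the TFRC and FTL pairs lie almost level.

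STEAP4 had the lowest difference of any measured gene. STEAP4 (also called STAMP2 or TNFAIP9) is a metalloreductase of the plasma membrane and endosomes that is known to be induced by inflammatory cytokines. Its brightest probe set, 225987_at, read 61.6 in the stretched array, against 958 in the non-stretched array. This is a log2 difference of -3.96, 15.5-fold lower, and rank 1 from the bottom of 13453 measured genes. At least 10-fold lower were 0.0892% of measured genes, which is 12 genes. The next genes above STEAP4, among those above the floor in both arrays, were NDRG1 at 15.3-fold lower and the acute-phase protein CRP at 12.9-fold lower. With only 2 arrays, likeness of pattern is likeness of this 1 difference.

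The fold of STEAP4 rests on 1 probe set. The other STEAP4 probe set, 220187_at, lay below the floor in both arrays at 6.43 stretched and 18.8 non-stretched, and so gives no fold. The stretched signal of 225987_at was itself not far above the floor of 28.4, so the size of the fold depends on how dim values are treated. With the floor at the 75th percentile the stretched value is raised to the floor of 249, and the log2 difference becomes a bound of -1.94.

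The 250 bases upstream of the STEAP4 start are shown because STEAP4 is the member that differed most. They are the minus strand of chr7:88306895-88307144 (GRCh38.p14, RefSeq), with matches to the searched factor motifs in capitals.
STEAP4 upstream: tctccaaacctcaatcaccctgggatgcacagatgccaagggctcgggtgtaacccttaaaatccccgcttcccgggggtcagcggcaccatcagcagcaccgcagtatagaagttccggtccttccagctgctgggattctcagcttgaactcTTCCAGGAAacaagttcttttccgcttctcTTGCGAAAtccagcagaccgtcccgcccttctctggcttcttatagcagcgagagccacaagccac
The first capitals, TTCCAGGAA, match the STAT motif TTCNNNGAA on both strands at bases -96 to -88 from the start. The second, TTGCGAAA, match the C/EBP motif TTGCNNAA at bases -66 to -59. Of 35116 upstream windows of this length in the RefSeq table, 6.57% hold the STAT motif, 9.05% the C/EBP motif and 0.777% both, searched on both strands. No match to the NF-kB motif GGANTTTCC, which 1.45% of windows hold, to the AP-1 motif TGANTCA (6.57%) or to the antioxidant motif TGACNNNGC (10.9%) lay in these 250 bases. Over the 13 windows of the 9 named members, the only other match was 1 AP-1 motif in 1 of the 4 SLC11A2 windows. These are letter matches and describe no binding.

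STEAP1B moved the other way and STEAP1, its close copy, moved little. STEAP1B is a STEAP1-related gene whose protein is little studied. Its 1 probe set, 217553_at, read 947 in the stretched array, against 92.0 in the non-stretched array, a log2 difference of 3.36 or 10.3-fold higher. That placed it at rank 12 from the top of the measured genes, of which 12 (0.0892%) were at least 10-fold higher. Its neighbours in this order, among genes above the floor in both arrays, were CDC25A (10.9-fold higher) and MCM10 (10.8-fold) above it, and DDC (9.70-fold) and CDC45 (9.41-fold) below it. CDC25A, MCM10 and CDC45 act in S-phase entry and DNA replication, and DDC is an amino acid decarboxylase.

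STEAP1, a cell-surface protein first known from prostate tumours, read 2431 in the stretched array and 1966 in the non-stretched array by its 1 probe set. The difference of 0.31, 1.24-fold higher, lies between the probe set SD of 0.36 over all signals and that of 0.22 among bright probe sets, to which this one belongs. Of all measured genes, 59.4% differed by at least as much in either direction, against 0.164% for STEAP1B.

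The upstream regions of STEAP1 and STEAP1B are shown together because the 2 genes have nearly the same sequence there. STEAP1 is on the plus strand of chr7:90154219-90154468 and STEAP1B on the minus strand of chr7:22500189-22500438 (GRCh38.p14, RefSeq), and capitals mark the bases that differ.
STEAP1 upstream: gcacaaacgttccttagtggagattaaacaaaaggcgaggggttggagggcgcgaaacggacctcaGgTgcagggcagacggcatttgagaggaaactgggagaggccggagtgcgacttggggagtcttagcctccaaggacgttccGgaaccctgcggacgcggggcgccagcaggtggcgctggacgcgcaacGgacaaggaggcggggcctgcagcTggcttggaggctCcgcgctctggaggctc
STEAP1B upstream: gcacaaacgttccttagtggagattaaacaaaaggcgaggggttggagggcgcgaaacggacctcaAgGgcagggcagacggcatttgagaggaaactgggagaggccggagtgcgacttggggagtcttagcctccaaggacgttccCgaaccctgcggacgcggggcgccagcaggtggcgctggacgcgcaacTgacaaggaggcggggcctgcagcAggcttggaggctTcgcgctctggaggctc
The windows are identical at 244 of 250 bases (97.6%) without any gap, and the next closest upstream window of another gene matches STEAP1 at 40% of bases. Windows were compared base by base at the same distance from the start, so a similar region that is shifted would be missed. Counted back from the start, from STEAP1 to STEAP1B, the differences are G-184A, T-182G, G-102C, G-54T, T-30A and C-17T. A further 4 of the first 50 transcribed bases differ. Neither window matched any of the 5 factor motifs searched. Genes with this degree of identity can also share transcript sequence. The files hold no probe sequences, so whether probes of 1 gene bind transcripts of the other was not tested. The log2 differences of the 2 probe sets, 3.36 for STEAP1B and 0.31 for STEAP1, give no measure of such binding.

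STEAP2, a metalloreductase of the secretory pathway, was lower. Its 1 probe set read 258 in the stretched array, against 698 in the non-stretched array, a log2 difference of -1.43 and 2.70-fold lower. Of measured genes, 7.37% differed by at least as much. STEAP3, the endosomal ferrireductase of the transferrin cycle in mouse erythroid precursors and a p53-induced gene, did not reach 2-fold. Its brightest probe set, 218424_s_at, read 1907 stretched and 1213 non-stretched, a difference of 0.65. The dimmer STEAP3 probe set, 1554830_a_at, read 111 stretched and 109 non-stretched, a difference of 0.03. The larger of the 2 STEAP3 values comes from a probe set ending in _s_at, a class that can bind several transcripts. The SD of 0.36 describes 1 probe set, and a gap between 2 probe sets varies more, so the STEAP3 gap is not judged by it.

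STEAP1, STEAP2 and STEAP4 lie on 1 arm of chromosome 7. STEAP1 and STEAP2 are next to each other among the protein-coding genes named on the array, with log2 differences of 0.31 and -1.43. Beyond STEAP2 the next gene, CFAP69, was at -0.11, and GTPBP10 lay below the floor in both arrays. Between STEAP4 and STEAP1, ZNF804B and TEX47 also lay below the floor in both. On the far side of STEAP4, the calcium-binding protein SRI was at -0.32 (4493 stretched, 5596 non-stretched), and ADAM22 was near the floor. Around STEAP1B, elsewhere on chromosome 7, the neighbours were CDCA7L at 0.61, RAPGEF5 at 0.67, IL6 at -0.74 and HYCC1 at 0.79, none of which reached 2-fold. STEAP3 lies on chromosome 2, where C2orf76 was at -0.63 and DBI at -0.07, EN1 exceeded the floor only when stretched, at 0.64, and MARCO lay below the floor in both.

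**Figure D2:**
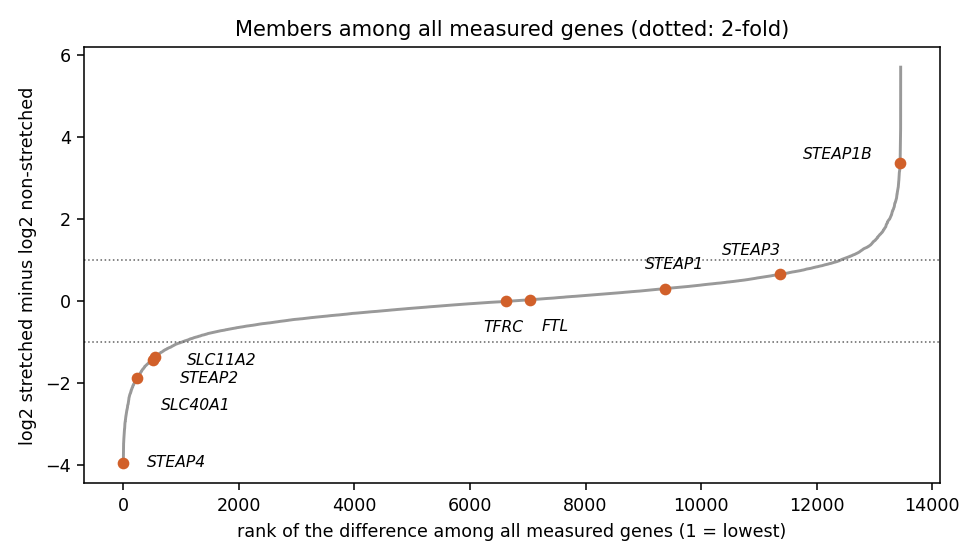
Log2 difference, stretched minus non-stretched, of all 13453 measured genes in rising order (grey line), with the 9 named members marked and 2-fold dotted. STEAP4 is at the bottom end (-3.96), SLC40A1, STEAP2 and SLC11A2 lie below the lower line, and STEAP1B is near the top (3.36).

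Both membrane iron transporters were lower in the stretched array. SLC40A1, ferroportin, the only known exporter of iron from cells, read 632 in the stretched array, against 2334 in the non-stretched array, by its brightest probe set 223044_at. This is a log2 difference of -1.88, 3.69-fold lower. The other SLC40A1 probe set, 233123_at, was dim at 50.2 stretched and 36.8 non-stretched, and its difference of 0.45 had the opposite sign. The 2 probe sets thus disagree in direction, and the dim one lies near the floor.

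SLC11A2 encodes the proton-coupled importer of ferrous iron. Its 3 brighter probe sets moved together. Probe set 203124_s_at read 378 stretched and 969 non-stretched, 203123_s_at read 120.1 stretched and 349 non-stretched, and 203125_x_at read 80.9 stretched and 216 non-stretched. Their log2 differences were -1.36, -1.54 and -1.42, between 2.57-fold and 2.90-fold lower. All 3 end in _s_at or _x_at and may share target sequence. As with STEAP3, the gaps between them are not judged by the SD, which describes 1 probe set. Another probe set, 237106_at, lay near the floor at 40.5 stretched and 28.6 non-stretched, a difference of 0.50. The last, 210047_at, was below the floor in both arrays. Known SLC11A2 transcripts differ in whether their 3' end carries an iron-responsive hairpin; which form each probe set reads is not recorded in the annotation used here. With the _x_at and _s_at probe sets left out, 237106_at is the only measured one, and the sign turns to 0.50.

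TFRC and FTL were nearly level. TFRC, the main route of transferrin iron into dividing cells, read 7903 stretched and 7925 non-stretched in probe set 208691_at, and 6799 stretched and 6080.2 non-stretched in 207332_s_at. These are log2 differences of -0.0039 and 0.16, inside the probe set SD. Another probe set, 237215_s_at, differed by -0.07 at 131 stretched and 138 non-stretched. The 2 other TFRC probe sets were dim, 240686_x_at exceeding the floor only when non-stretched (24.8 stretched, 45.1 non-stretched) and 237214_at below it in both.

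FTL, the ferritin light chain, read 10903 stretched and 10628 non-stretched in 212788_x_at, and 9494 stretched and 9127 non-stretched in 213187_x_at. The differences were 0.04 and 0.06. Both probe sets end in _x_at, so signal from related ferritin sequences cannot be told apart from that of FTL. The sign of the TFRC and FTL values changed with the scaling of the arrays, from -0.11 to 0.11 for TFRC and from -0.07 to 0.15 for FTL when the arrays were centred on the 75th percentile or on the spike-ins. No direction is given for either gene.

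The start of the FTL transcript is shown because it carries the hairpin through which iron regulates ferritin. It lies on the plus strand of chr19:48965336-48965358 (GRCh38.p14, RefSeq), and capitals mark the start of the hairpin loop.
FTL iron-responsive element: tcttgcttcaaCAGTGtttggac
A C (the bulged base), 5 bases of stem and the loop letters CAGTG matched in this order at transcribed bases 33 to 43, counted from the start, on the transcript strand. The same pattern occurs in 10.2% of the 35116 windows of 300 bases. That share also counts matches in the 250 upstream bases, so it is not the share for the first 50 transcribed bases, where the FTL match lies. No window of another member matched, but these windows hold only the first 50 transcribed bases and no 3' end.

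**Figure D3:**
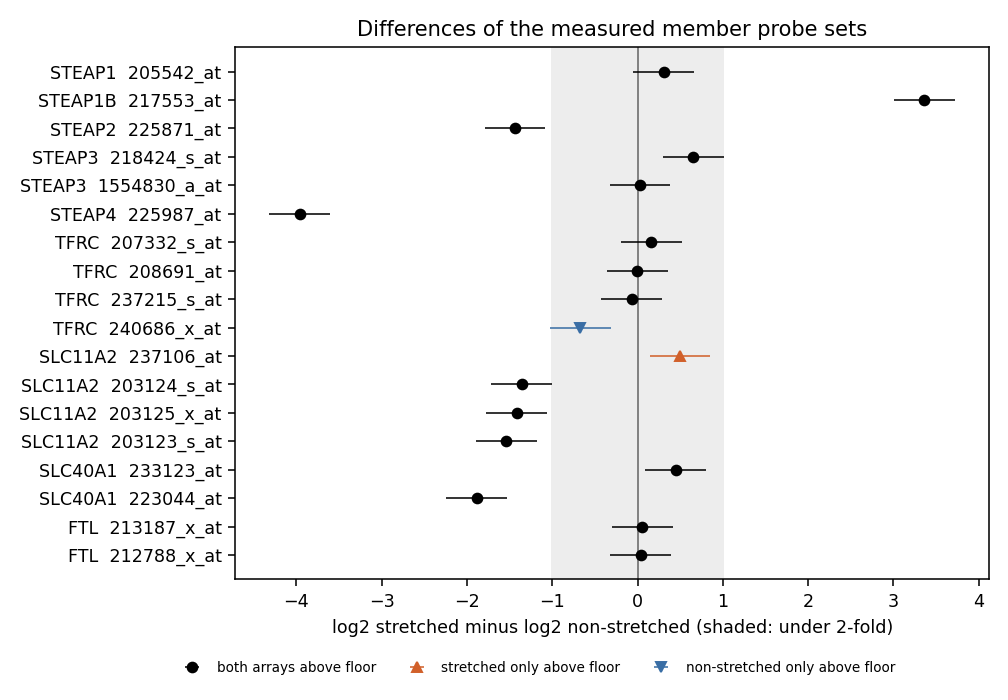
Log2 difference, stretched minus non-stretched, of the 18 member probe sets above the floor in at least 1 array; bars are the estimated probe set SD of 0.36 and shading marks less than 2-fold. The 3 brighter SLC11A2 probe sets lie together between -1.54 and -1.36. Those of SLC40A1 lie at -1.88 and 0.45, and those of STEAP3 at 0.65 and 0.03.

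Outside the members, most genes of iron, haem, iron-sulphur and copper handling differed less than 2-fold. Of 135 such genes on 8 lists, 110 were measured, 5 (4.55%) were higher and 4 (3.64%) lower by 2-fold or more. Their median log2 difference was 0.01, against 0.0050 for all measured genes. The shares of all measured genes were 7.78% and 7.49%. The 110 leave out the members, which were picked with these differences known, and the lists were written with earlier results known. Nothing is therefore read from the contrast.

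Among 12 measured genes of iron uptake, export and reduction, 1 was at least 2-fold lower and 2 were higher. CYBRD1 (DCYTB), the ferric reductase that works beside SLC11A2 at the gut surface, read 29.6 stretched and 203 non-stretched, 6.86-fold lower. Its stretched value lies just above the floor, and its other measured probe set was at -1.32, in the same direction. SLC39A8 (ZIP8), an importer of zinc, manganese and ferrous iron, was 2.29-fold higher at 1052 stretched and 459 non-stretched. All 4 of its measured probe sets were positive, between 0.63 and 1.46. The zinc importer SLC39A4 was 2.11-fold higher (318 stretched, 151 non-stretched), and the next gene by size, CYB561D2, was at 0.44. Transferrin (TF), lactoferrin (LTF) and the ferroxidase HEPH, named after their values were seen, lay below the floor in both arrays.

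Of 3 measured genes of iron storage and cytosolic iron chaperoning, none reached 2-fold. The ferritinophagy receptor NCOA4 was at -0.0097, and the iron chaperones PCBP1 and PCBP2 at 0.03 and -0.22. Of 19 measured genes of iron sensing and the hepcidin pathway, 1 was at least 2-fold lower and 0 higher, with a median of -0.21. ACVR1, a receptor for bone morphogenetic proteins, was 2.01-fold lower (1562 stretched, 3135 non-stretched), and the partner receptor BMPR2 was at -0.99, with 5 probe sets between -1.31 and -0.98. HFE, the haemochromatosis protein, was at -0.82, but its 14 measured probe sets ranged from -1.44 to 0.17. CUL1, of the ubiquitin ligase that removes iron regulatory protein 2, was at 0.76. By sign, 14 of the 19 lay below 0, as did 6662 of all 13453 measured genes. The list's count lay between 8 and 16, of 15 to 21 measured genes, across the alternative settings. Of 4 measured genes with other reported iron-responsive elements, none reached 2-fold. These were CDC42BPA at -0.69, EPAS1 at 0.33, PFN2 at 0.09 and ALAS2 at -0.08.

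Among 24 measured haem genes, the 2 haem oxygenases differed in opposite directions. HMOX2, the constitutive form, was 2.17-fold higher at 3391 stretched and 1564 non-stretched, with a second probe set at 1.05. HMOX1, the stress-inducible form, was 2.04-fold lower at 47.7 stretched and 97.5 non-stretched, both dim. CPOX and PPOX, enzymes of late haem synthesis, were at 0.92 and -0.75. Of 21 measured genes of mitochondrial iron and iron-sulphur assembly, only ABCB10, a transporter of the mitochondrial inner membrane, reached 2-fold, at 2.46-fold higher (563 stretched, 228 non-stretched). The mitochondrial iron importer SLC25A28 was at 0.62, BOLA3 at 0.54 and ABCB8 at -0.49.

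All 13 measured genes of cytosolic iron-sulphur assembly lay above 0, as did 6788 of all 13453 measured genes, and the list's median was 0.39. Above 0 were 9 of 13 when the arrays were centred on the 75th percentile and 10 of 13 with the loess trend removed. The list was written with earlier results known, and nothing is read from these counts. Of the 13, 1 was at least 2-fold higher. This was NDOR1, which passes electrons to the assembly factor CIAPIN1, at 2.03-fold (181 stretched, 89.5 non-stretched), with its other probe set at -0.82. GLRX3, CISD3 and BOLA2 were at 0.89, 0.68 and 0.62. Of 14 measured copper genes, 1 was at least 2-fold lower. This was the copper-exporting ATPase ATP7B, 2.15-fold lower (225 stretched, 483 non-stretched). The cytochrome oxidase assembly factors COX11 and SCO1 were at 0.85 and 0.78, and CUTC at 0.85.

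**Figure D4:**
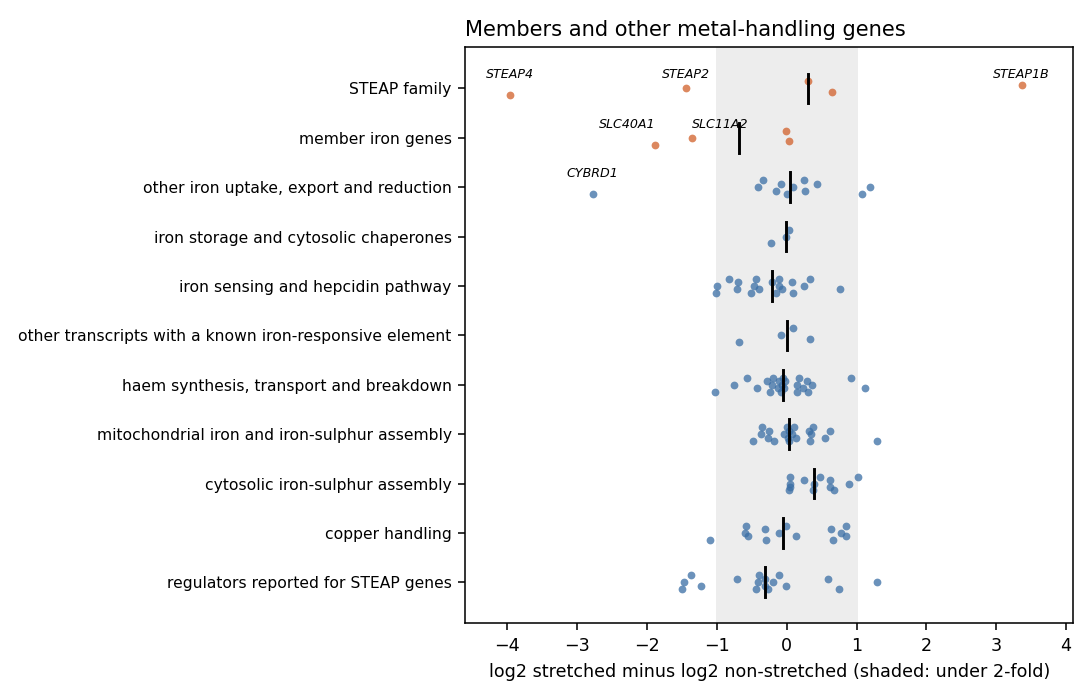
Log2 difference, stretched minus non-stretched, of each measured gene (points) by gene list, with the list median as a bar and shading for less than 2-fold; members are orange. CYBRD1 (-2.78) lies farthest from 0 among the genes outside the members.

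Factors and receptors that published work links to STEAP genes were listed beside them. Of 17 measured, 4 (23.5%) were lower and 1 (5.88%) was higher in the stretched array by 2-fold or more, beside 7.49% lower and 7.78% higher of all measured genes. The list was written with earlier results known, and nothing is read from these shares. CEBPD, a C/EBP factor of the acute phase response, read 1146 stretched and 3249 non-stretched, a difference of -1.50, with its other probe set at -0.70. NFKBIZ, a cofactor of NF-kB and of interleukin-17 responses, read 1080.2 stretched and 2982 non-stretched, a difference of -1.47, with its other probe set at -2.15. The interleukin-17 receptor subunit IL17RC was at -1.37 (111 stretched, 288 non-stretched), although its 4 measured probe sets ranged from -1.64 to -0.15. STAT3 was at -1.23 (1302 stretched, 3048 non-stretched), with 3 probe sets between -1.23 and -0.88. PPARG, a nuclear receptor of lipid metabolism, was 2.44-fold higher (1644 stretched, 674 non-stretched) in a probe set ending in _s_at. The list's median was -0.32, and 14 of 17 lay below 0, as did 6662 of all 13453 measured genes. Across the alternative settings, the lowest share was 12 of 17, with the arrays centred on the spike-ins. These genes were compared in the same 2 arrays as STEAP4, and their part in its value was not tested.

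**Figure D5:**
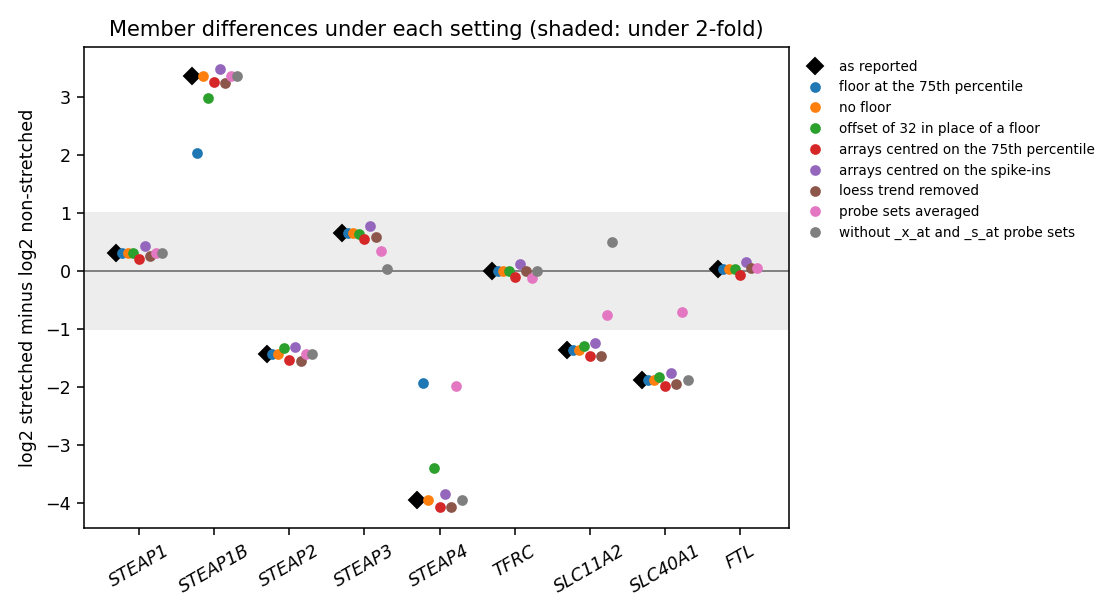
Log2 difference of each named member, stretched minus non-stretched, as reported (diamonds) and under 8 alternative settings (circles), with less than 2-fold shaded. STEAP1B, STEAP2 and STEAP4 stay beyond 2-fold under all 8, while SLC11A2 and SLC40A1 fall inside it when probe sets are averaged. STEAP1B and STEAP2 have 1 probe set each, above the floor in both arrays and not ending in _x_at or _s_at. No floor, averaging and leaving out those classes therefore cannot change their values.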

How the data were processed

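Total RNA (6 µg per sample) was converted to biotin-labelled cRNA by the standard Affymetrix protocol, per the labels' protocols. The deposited values are linear signal intensities, 1 for each probe set on each array; how the authors summarised and scaled the probes, and with which software, is not given in the sources used here. The intensities were used as deposited, since the array medians differed by -0.017 on the log2 scale.

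Gene names came from the platform annotation where it gave a single gene (41091 probe sets; 1801 listed several genes and 11721 were unnamed here), with symbols updated by gene ID through RefSeq (GRCh38.p14). Lower values were raised to the array's 50th percentile (28.4 stretched, 28.7 non-stretched) before log2 was taken. The brightest probe set by mean log2 signal stood for a gene. With 1 array per group no test was made and no p-value is given. The probe set SD of 0.36 came from the 2 brightest probe sets of 5818 genes. The named genes are every member, up to 4 genes of each other list with the largest difference and all past 2-fold, the 2 genes nearest in rank on each side of STEAP4 and STEAP1B, and the 2 nearest named protein-coding neighbours on each side of each STEAP gene. Members, lists and this rule were chosen with earlier results of these data known. The alternatives were the 75th percentile as floor, no floor, an offset of 32, centring on the 75th percentile or the spike-ins, a loess trend (fraction 0.3), averaging probe sets, and leaving out _x_at and _s_at probe sets. Scripts ran in Python 3.11.15 with pandas 2.3.3 and statsmodels 0.14.6 and were tested on simulated data.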

Additional observations from a re-analysis of the deposited data

How the results depend on the processing

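No paired analysis was possible because each group is 1 array and no result comes from a test. Across the 8 alternatives, 1 member was at least 2-fold higher under each, and the 4 lower members became 2 when probe sets were averaged and 3 with the _x_at and _s_at probe sets left out. Of all measured genes, 4.85% were lower by 2-fold or more with probe sets averaged and 7.59% with those classes left out, beside 7.49% as reported. STEAP4 was at -1.94 with the floor at the 75th percentile, -3.40 with an offset of 32 and -1.99 with probe sets averaged, which takes in the probe set below the floor. STEAP1B was at 2.98 under the offset and at 2.03 under that higher floor. The 2.03 is a bound, like the -1.94 of STEAP4, since the non-stretched STEAP1B signal of 92.0 was raised to the floor of 231. With probe sets averaged, SLC11A2 was at -0.77 and SLC40A1 at -0.72, since their dim probe sets enter the mean. With the _x_at and _s_at probe sets left out, SLC11A2 reversed to 0.50 and STEAP3 was at 0.030, each then resting on 1 dim measured probe set. Among the other metal-handling genes, the 5 at least 2-fold higher became 3 under the higher floor, the offset, centring on the 75th percentile, the loess trend and averaging, and 7 with no floor and with centring on the spike-ins. The 4 lower became 1 under the higher floor, 11 with no floor and 1 with the arrays centred on the spike-ins. The shares of all measured genes moved too, so nothing is read from these counts alone. Lower by 2-fold or more were 4.59% of 8590 genes under the higher floor, 12% of 19775 with no floor and 6.17% with spike-in centring. Higher were 4.09% to 6.77% in the settings that gave 3, 11.7% with no floor and 9.79% with spike-in centring. Centring on the 75th percentile or on the spike-ins moved the median of all measured genes to -0.10 or 0.12. Dim signals limit STEAP4 and CYBRD1 (stretched) and STEAP1B (non-stretched), and with 1 array per group no alternative measures the variation between cultures.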
